A study of Homo sapiens with 14 samples.

Results

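Microexons are cassette exons so short that they add only a few amino acids to a protein. Cassette exons of at most 30 nt were examined here in RNA-Seq of HEK293T, a line derived from human embryonic kidney, with an unaltered SF3B1 gene (WT) or with the SF3B1-K700E mutation at the endogenous locus (MT). They were taken from the deposited table of splice events by type (a skipped exon between 2 flanking exons), by a mean of the WT and MT junction reads of at least 10, and by length. The rule used no difference between WT and MT. It gave 721 exons in 631 genes, out of 51249 cassette exons with the same depth. These 721 exons filled 833 rows of the table, because 85 exons were listed with more than 1 pair of flanking exons, and each exon is described by its row with the most reads. There were 3 WT and 3 MT libraries, both from the same parental line, and the labels name no treatment. They do not say whether libraries of a genotype came from separate cultures or whether MT cells are a single clone, so p-values measure the spread between these libraries, which may be technical. The table holds no expression values, so neither the identity of the cells nor the SF3B1 allele could be checked in it. Libraries are numbered by the order of the level columns.

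Short exons leave little room for the proteins that define an exon across its length, and many are spliced only with help from neighbouring intron elements. In neurons, SRRM4 (nSR100) promotes microexons by acting at UGC motifs near the 3′ splice site, and PTBP1, abundant in non-neuronal cells, represses many of them. Most neural microexons keep the reading frame and place residues on the surface of proteins of the synapse, the cytoskeleton and vesicle transport. SF3B1 is a subunit of the U2 small nuclear ribonucleoprotein, which binds the branch point of the intron upstream of an exon, and its K700E form is known for the use of other 3′ splice sites. The inclusion of each microexon was compared between MT and WT.

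The exons below are those with the largest differences whose WT and MT levels did not overlap, without the 6-nt exon of HOOK3, whose sequence is not shown. They are followed by 2 of the shortest members and 2 deeply covered ones whose WT and MT levels overlapped. Each line gives 30 bases of upstream intron in lower case, the exon in capitals and 10 bases of downstream intron in lower case, 5′ to 3′ on the strand of the gene, from hg38.
SLIT2, 12 nt, chr4:20490803-20490814, plus strand: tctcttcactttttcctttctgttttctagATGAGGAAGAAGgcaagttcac
CXXC1, 27 nt, chr18:50285325-50285351, minus strand: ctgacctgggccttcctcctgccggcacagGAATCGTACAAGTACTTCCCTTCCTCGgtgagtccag
PPFIBP1, 30 nt, chr12:27674192-27674221, plus strand: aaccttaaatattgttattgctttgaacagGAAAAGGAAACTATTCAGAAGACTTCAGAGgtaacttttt
TRAPPC13, 18 nt, chr5:65655636-65655653, plus strand: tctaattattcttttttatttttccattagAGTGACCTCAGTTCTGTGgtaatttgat
FNBP1, 15 nt, chr9:129915966-129915980, minus strand: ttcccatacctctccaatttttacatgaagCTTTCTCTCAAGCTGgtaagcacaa
RANBP3, 18 nt, chr19:5957918-5957935, minus strand: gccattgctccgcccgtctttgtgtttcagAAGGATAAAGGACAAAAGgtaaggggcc
MXD3, 30 nt, chr5:177310668-177310697, minus strand: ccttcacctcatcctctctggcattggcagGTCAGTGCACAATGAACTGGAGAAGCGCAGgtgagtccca
FERMT2, 21 nt, chr14:52861014-52861034, minus strand: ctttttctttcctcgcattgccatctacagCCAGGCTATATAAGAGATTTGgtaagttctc
SPIRE2, 28 nt, chr16:89868189-89868216, plus strand: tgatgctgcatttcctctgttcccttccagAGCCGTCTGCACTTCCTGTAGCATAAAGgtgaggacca
ASXL1, 3 nt, chr20:32367727-32367729, plus strand: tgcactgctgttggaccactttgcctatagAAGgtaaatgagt
SEPTIN7, 2 nt, chr7:35831495-35831496, plus strand: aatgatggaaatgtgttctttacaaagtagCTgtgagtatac
ACLY, 30 nt, chr17:41896620-41896649, minus strand: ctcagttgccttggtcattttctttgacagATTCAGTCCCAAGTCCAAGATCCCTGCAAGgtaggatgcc
FLNA, 24 nt, chrX:154357251-154357274, minus strand: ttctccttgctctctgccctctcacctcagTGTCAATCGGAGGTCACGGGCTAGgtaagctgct
All 13 are coding exons in GENCODE release 44. The introns end in ag in every line. The intron after the SLIT2 exon starts with gc, and the others start with gt. Over all members, 712 of 721 were followed by gt, 8 by gc and 1 by ac, and 719 (99.7%) were preceded by ag. Among 50524 longer cassette exons with sequence, the shares were 98.5% for gt and 99.9% for ag.

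The members were concentrated at lengths that keep the reading frame. Of 721, 449 (62.3%) had a length that is a multiple of 3, against 39.0% of cassette exons over 30 nt. The share was 80.8% among the 73 exons of 10 to 15 nt and 54.0% among the 176 of 28 to 30 nt. The shortest was the 2-nt exon of SEPTIN7, a filament-forming GTPase, and 9 members had 3 nt. GENCODE lists 622 members (86.3%) as coding exons, 67 as exons in an untranslated region, 31 as exons of non-coding transcripts and 1 not with these ends. The corresponding share of coding exons among longer cassette exons was 78.2%.

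The intron upstream of microexons was rich in pyrimidines. C and T made up a median of 75.0% of the 20 bases from position 23 to position 4 before the exon, against 70.0% before longer exons. The nearest AG upstream of the splice site lay at a median of 43 nt, against 31 nt for longer exons. TGC, the DNA form of UGC, was found on the strand of the gene within 50 nt upstream of 426 members (59.1%) and of 55.4% of longer exons. It was found before 66.4% of the members with a mean level below 0.1 and before 53.1% of those above 0.9. The upstream intron had a median of 1652 nt and the downstream intron 1588 nt, against 2205.5 and 2036 nt for longer exons. These are descriptions of the genome around the exons, with no test.

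**Figure D1:**
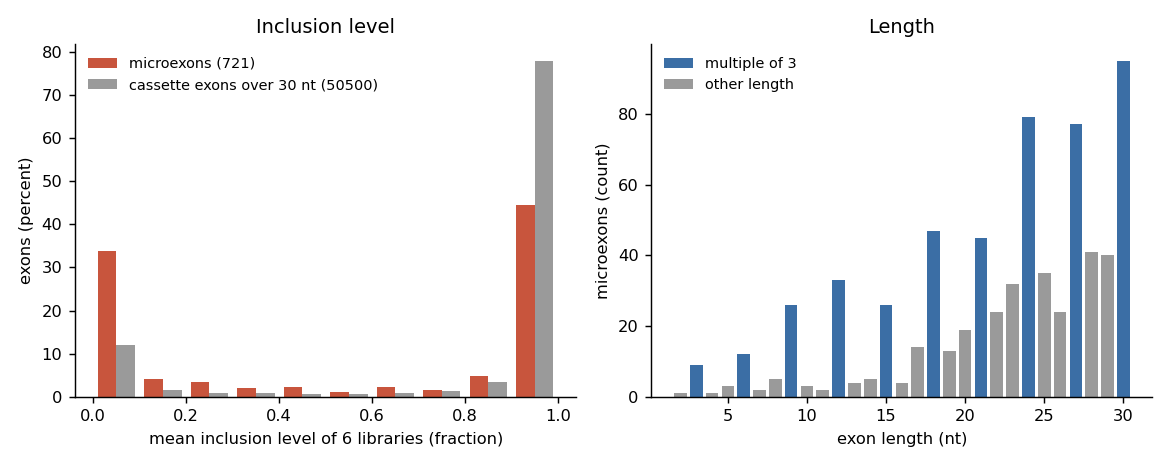
Left, the share of exons (percent) in bins of the mean inclusion level over 6 libraries for 721 microexons and 50500 longer cassette exons with a level in every library. Right, the number of microexons of each length in nt, coloured by whether the length is a multiple of 3. Microexons filled the lowest bin (33.8%) far more than longer exons did (11.9%), and lengths that are a multiple of 3 stood above their neighbours.

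The inclusion level is the fraction that hold the exon among transcripts with a given pair of flanking exons, so it can differ with another pair. It is estimated from reads over the junctions and corrected for the length of each form. In bulk RNA a level of 0.5 in every cell and of 1 in some cells cannot be told apart. Microexons were mostly either skipped or included. The mean level over the 6 libraries was below 0.1 in 244 members (33.8%), between 0.1 and 0.9 in 157 (21.8%) and above 0.9 in 320 (44.4%). For longer cassette exons the shares were 11.9%, 10.3% and 77.9%. Shorter members had lower levels, from a median of 0.208 among exons of 2 to 9 nt and 0.160 among those of 10 to 15 nt to 0.857 at 22 to 27 nt and 0.959 at 28 to 30 nt. At the limit of the rule, the 95 exons of exactly 30 nt had a median level of 0.951 and the 227 exons of 31 to 33 nt, just outside it, 0.963. The median level of the 11 members with 10 to 11 mean reads was 0.925, and that of the 16 exons with 9 to 10 reads was 0.952.

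Frame and level went together. Of the members with a level below 0.1 or between 0.1 and 0.9, 72.5% and 75.2% had a length that is a multiple of 3, against 48.1% of those above 0.9. Members that keep the frame had a median level of 0.342 and the others 0.958. Longer cassette exons had medians of 0.99 and 0.991. Among the best covered members, the 23-nt exon of RPL41, a ribosomal protein gene, was at 0.998 to 0.999 in every library at 6600 mean reads. The 9-nt exon of SSRP1, a subunit of the histone chaperone FACT, was at 0.000 to 0.002 at 1046 mean reads. The 30-nt exon of HMGN2, a nucleosome-binding protein, was at 0.999 to 1.000. In each of the 3 the levels of the 6 libraries lay within 0.002 of each other.

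A member rested on a median of 55.3 mean reads, against 90.3 for longer exons. In the rows with intact counts, the median was 28 to 40 junction reads per library. A share of 0.5 of the reads at those depths has a 95% Wilson interval of 0.326 to 0.674 or of 0.352 to 0.648. By a simpler approximation, also used below, no inclusion read in 28 or 40 allows a share of up to 0.107 or 0.075. It lies under the Wilson limit, as with 0 of 122 reads, where it gives 2.46% and the Wilson limit is 3.05%. These are shares of junction reads, without the length correction of the level. These limits cover counting error only, and PCR copies are not independent molecules. Over the 118 members with at least 20 mean reads and a level between 0.1 and 0.9, the median absolute difference between 2 libraries was 0.059 to 0.0765 within WT, 0.0755 to 0.0895 within MT and 0.067 to 0.101 between a WT and an MT library. Libraries of 1 genotype thus differed by about as much as libraries of both.

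No microexon was called as different between MT and WT, which took a difference in level above 0.1 with an adjusted p under 0.05 (limma on arcsine square-root transformed levels, Benjamini-Hochberg adjustment over 83581 splice events of all types). Of those events, 26 were called, which is 0.0311%, and a count of 0 among 658 microexons is near that background. The other 63 members could not be compared, since 42 were at 1 and 21 at 0 in every library. The smallest adjusted p of a member was 0.195. An unadjusted p under 0.05 was found for 29 members (4.41%), against 4.47% of all events. A quasi-binomial model on junction counts, which could be run for 487 members, called 1, CXXC1, and gave 35 (7.19%) with an unadjusted p under 0.05, against 5.82% of all events with intact counts. It called 0.102% of those events. With cassette exon rows fitted alone, where 0.0376% of rows were called, 1 member was called, the 12-nt exon of SLIT2. Without the third MT library, where 0.0167% of all events were called, 1 member was called, the 22-nt exon of RPS24.

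The direction was nearly balanced. Of the 658 members, 315 (47.9%) had a higher mean level in MT and 336 (51.1%) a lower one, with a median difference of -0.000333. Among 43361 longer cassette exons, 41.8% were higher and 57.0% lower in MT, with a median of -0.00200. Longer exons were more often above 0.9, and direction went with level in both sets. Above 0.9, 115 members were higher and 161 lower, beside 12713 and 19326 longer exons with sequence. Below 0.1, 126 members were higher and 92 lower, beside 3116 and 2527 longer exons with sequence. Among members with a level between 0.1 and 0.9, 74 were higher and 83 lower, with a median difference of -0.00567. Longer exons in that range had 2301 higher and 2873 lower, with a median of -0.0113. The median absolute difference was 0.0560 in members, close to the 0.0570 of longer exons in that range. For these members, the SD between single libraries had a median of 0.0725 in WT against 0.0853 in MT.

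All MT levels lay above all WT levels in 25 members (2.32% of all events were so placed) and below them in 25 (3.15% of all events). In the range from 0.1 to 0.9, 12.1% of members and 10.1% of longer exons had groups that did not overlap. Of the 25 that were higher in MT, 48.0% had a mean level between 0.1 and 0.9 and 40% one below 0.1. Of the 25 that were lower, 52.0% had a mean level above 0.9. Both sets held 20 exons with a length that is a multiple of 3. The 25 higher ones had TGC within 50 nt upstream in 9 cases and the 25 lower ones in 16, and the nearest upstream AG lay at medians of 47 and 53 nt. Since these sets were chosen by their values, the figures are descriptive.

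**Figure D2:**
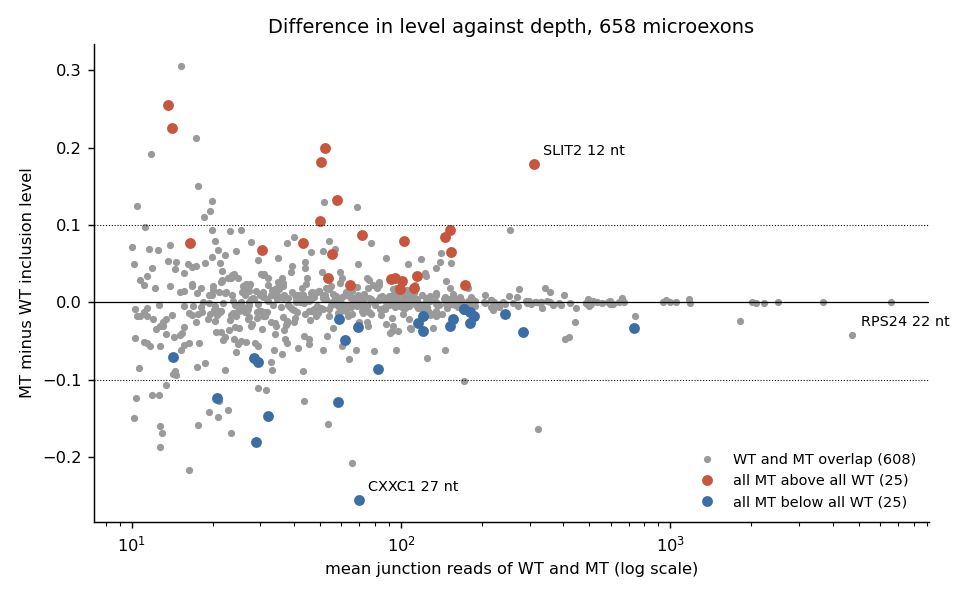
MT minus WT inclusion level of 658 microexons (vertical axis) against mean junction reads of WT and MT (horizontal axis, log scale), with dotted lines at differences of 0.1 and -0.1. Red points are the 25 exons with all MT above all WT libraries, blue points the 25 with all MT below, and grey points the 608 whose groups overlap. The spread narrows with depth. The 12-nt exon of SLIT2 stands out above 300 reads with a difference of 0.179. The 24-nt exon of that gene, at 323.5 reads and not labelled, lies at -0.164 with overlapping groups.

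SLIT2, a secreted ligand of Robo receptors that guides axons and migrating cells, held the member with the smallest p. The inclusion level of its 12-nt exon was 0.335, 0.268 and 0.198 in WT against 0.458, 0.479 and 0.401 in MT libraries. All MT libraries were above all WT libraries. The difference was 0.179, from 0.267 ± 0.069 to 0.446 ± 0.040 (SD, n = 3), at 310.2 mean reads (limma, adjusted p = 0.195, and 0.0188 with cassette exon rows fitted alone). Over the other alternatives the adjusted p ran from 0.196 to 0.892 (limma), with 0.763 under the logit transform. In WT the exon was supported by 97, 108 and 66 inclusion reads beside 172, 263 and 239 skipping reads. The MT counts of this exon could not be read, so the count model was not run for it. Its length keeps the frame, and its upstream pyrimidine stretch was among the richest of those shown, with C and T at 90%. A second SLIT2 member, of 24 nt (chr4:20525149-20525172), went the other way, with 0.629, 0.770 and 0.729 in WT against 0.433, 0.490 and 0.714 in MT. The third MT library lay within the WT range, and the difference of -0.164 was not significant (limma, adjusted p = 0.722). This second exon was chosen after its values were seen.

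CXXC1 (CFP1), which binds unmethylated CpG and brings a histone H3K4 methyltransferase to promoters, had the largest difference of any member with at least 20 reads. The level of its 27-nt exon was 0.913, 0.947 and 0.932 in WT against 0.804, 0.497 and 0.724 in MT libraries. The WT libraries were tightly grouped and the MT libraries spread over a wide range below them. The difference was -0.256, from 0.931 ± 0.017 to 0.675 ± 0.159 (SD, n = 3; limma, adjusted p = 0.337). Skipping reads numbered 5, 3 and 3 in WT against 8, 45 and 19 in MT, beside 67, 69 and 53 inclusion reads in WT against 42, 57 and 64 in MT. The count model gave an adjusted p of 0.00308 for it, and the adjusted p over the alternatives ran from 0.00308 to 0.894. The second MT library had the lowest level, and without it the difference was -0.167. The introns on both sides are short, 397 nt upstream and 77 nt downstream.

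The other 4 members of this set with higher levels in MT were less deeply covered, at 50.00 to 58.00 mean reads. HOOK3 links dynein to its cargo, and the level of its 6-nt exon was 0.206, 0.095 and 0.152 in WT against 0.401, 0.366 and 0.283 in MT (difference 0.199). PPFIBP1 is a liprin, a scaffold protein of cell adhesion, and the level of its 30-nt exon was 0.652, 0.826 and 0.803 in WT against 0.908, 0.937 and 0.978 in MT (difference 0.181). In both exons every MT library was above every WT library, by at least 0.077 in HOOK3 and 0.082 in PPFIBP1. TRAPPC13, a subunit of the TRAPP vesicle tethering complex, had an 18-nt exon at 0.662, 0.594 and 0.662 in WT against 0.687, 0.841 and 0.785 in MT. FNBP1, an F-BAR protein that shapes membranes during endocytosis, had a 15-nt exon at 0.050, 0.077 and 0.095 in WT against 0.213, 0.132 and 0.191 in MT. The first MT library of TRAPPC13 was close to the WT range, whereas the FNBP1 exon was rare in WT and at most at 0.213 in MT. The adjusted p of these 4 exons was 0.679 to 0.856 (limma).

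Members with lower levels in MT were mostly exons included in most WT transcripts. RANBP3, a cofactor of CRM1-dependent nuclear export, had an 18-nt exon at 0.903, 0.835 and 0.927 in WT against 0.747, 0.710 and 0.668 in MT (difference -0.180). MXD3, which pairs with MAX at MYC target genes, had a 30-nt exon at 1.000, 0.941 and 0.941 in WT against 0.709, 0.934 and 0.797 in MT. The groups were well apart for RANBP3, and for MXD3 the second MT library nearly touched WT. The 28-nt exon of SPIRE2, an actin nucleator, was at 1.000 in every WT library and at 0.844, 0.823 and 0.962 in MT, at only 20.75 mean reads with 1, 2 and 1 skipping reads. Its length does not keep the frame. FERMT2 (kindlin-2), an activator of integrins, had the only low-level exon of this set, of 21 nt, at 0.321, 0.158 and 0.253 in WT against 0.154, 0.065 and 0.127 in MT. Its highest MT library was just under the lowest WT library. The adjusted p of these 4 exons was 0.846 to 0.856 (limma).

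**Figure D3:**
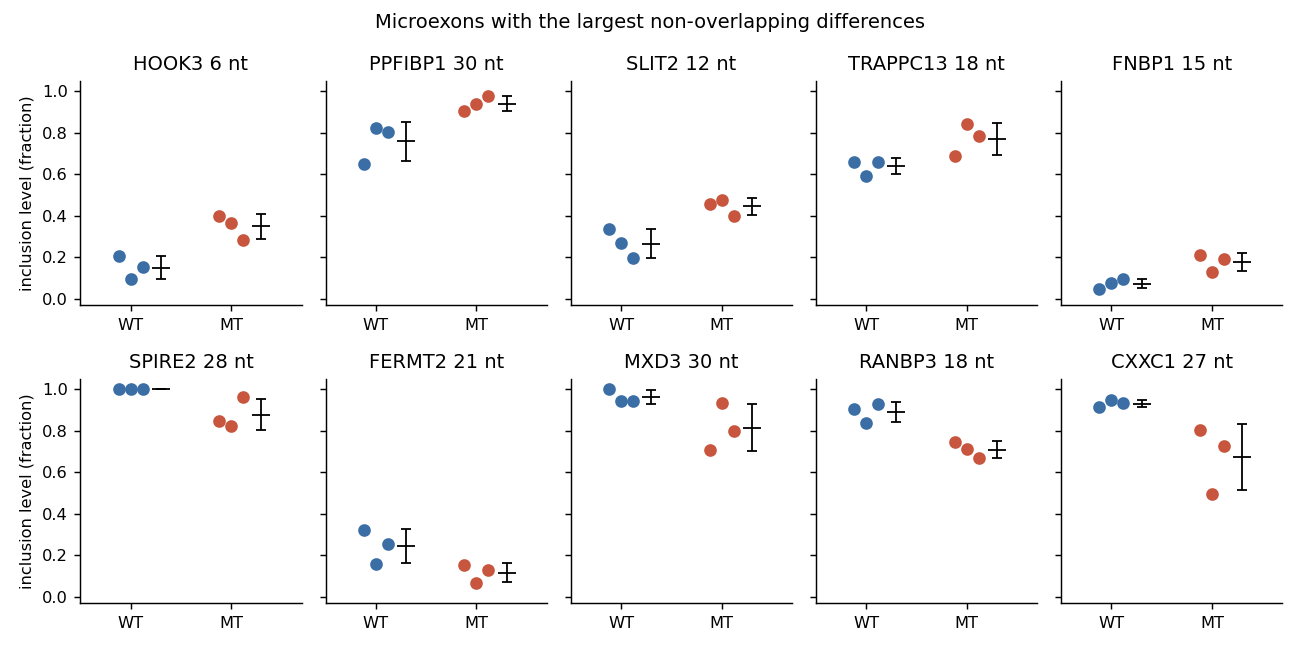
Inclusion level (fraction, vertical axis) of the 10 microexons with the largest non-overlapping differences at 20 or more mean reads, in 3 WT (blue) and 3 MT (red) libraries, with mean and SD in black. The upper row holds the 5 exons with higher levels in MT, from HOOK3 (difference 0.199) to FNBP1 (0.105), and the lower row the 5 with lower levels, from SPIRE2 (-0.124) to CXXC1 (-0.256).

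With fewer than 20 reads, 2 further exons had groups that did not overlap and a difference above 0.1, both higher in MT. They lie in COL25A1, a transmembrane collagen (24 nt, difference 0.255 at 13.58 mean reads), and in CADPS2, a factor of dense-core vesicle release (15 nt, difference 0.226 at 14.08 mean reads). Smaller differences at high depth were also seen, and these exons were chosen after their values were seen. The 23-nt exon of the non-coding RNA gene GAS5 was at 0.964, 0.938 and 0.927 in WT against 0.915, 0.899 and 0.915 in MT at 735.2 mean reads. The 18-nt exon of SPTAN1 (spectrin alpha II, of the membrane skeleton) was at 0.980, 0.969 and 0.979 in WT against 0.951, 0.929 and 0.934 in MT. A 25-nt exon of DROSHA, the nuclease that cuts primary miRNAs, was at 0.000 in the WT libraries and at 0.041, 0.043 and 0.017 in MT, and GENCODE lists it only in a non-coding transcript. The WT libraries had 0 of 122, 127 and 102 junction reads for it, which allows up to 2.46%, 2.36% and 2.94%, and the MT libraries had 4, 5 and 3 inclusion reads. In their rows with the most reads, these 3 exons differed by 0.033 to 0.038 between groups that did not overlap, with adjusted p of 0.646 to 0.856 (limma).

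Other exons of these 2 sets of 25 differed by less than 0.1. The 27-nt exon of FIP1L1, a subunit of the polyadenylation machinery, was at 0.328, 0.344 and 0.283 in WT against 0.399, 0.450 and 0.358 in MT. The 25-nt exon of CD47, a cell surface protein that restrains phagocytosis, was at 0.111, 0.058 and 0.114 in WT against 0.169, 0.209 and 0.144 in MT. The 24-nt exon of PHACTR4, a regulator of protein phosphatase 1, was at 0.523, 0.583 and 0.483 in WT against 0.615, 0.610 and 0.624 in MT. With another upstream exon, at 12.08 mean reads, the same PHACTR4 exon was at 1.000 in each WT library against 0.923, 0.912 and 0.872 in MT, so that all MT libraries were lower there. In the rows of these 3 exons with the most reads, the lowest MT library was close to the highest WT library, at distances of 0.014 (FIP1L1), 0.030 (CD47) and 0.027 (PHACTR4). The 30-nt exon of CLSTN1, a calsyntenin that carries cargo on kinesin, was at 0.143, 0.20 and 0.176 in WT against 0.046, 0.105 and 0.111 in MT, which were all lower. The 12-nt exon of ERO1A, an oxidase of the endoplasmic reticulum, was at 0.963 to 0.980 in WT and at 1.000 in all MT libraries. It had 2, 2 and 4 skipping reads in the WT libraries and 0 of 82, 70 and 96 junction reads in the MT libraries, which allows a skipping share of up to 3.66%, 4.29% and 3.12%. The adjusted p of these 5 exons was 0.841 to 0.856 (limma), and they too were chosen after their values were seen.

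The shortest members with at least 20 reads showed little difference. The 2-nt exon of SEPTIN7 was at 0.944, 0.772 and 0.827 in WT against 0.904, 0.748 and 0.874 in MT. The 3-nt exon of ASXL1, a chromatin regulator of the Polycomb system, was at 0.901, 0.952 and 0.951 in WT against 0.933, 0.926 and 0.974 in MT. Both were included in most transcripts, with overlapping groups. The 3-nt exon of VDAC3, a channel of the outer mitochondrial membrane, was at 0.007 to 0.015 in WT against 0.005 to 0.022 in MT at 297.8 mean reads. The 3-nt exon of SMARCA4, the ATPase of the BAF chromatin remodelling complex, was annotated in an untranslated region and was at 0.034 or less in WT and at 0.000 in MT, where 0 of 45, 65 and 85 junction reads allow up to 6.67%, 4.62% and 3.53%. The adjusted p of the 4 was 0.856 to 0.987 (limma).

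Of 70 genes known for neural microexons, 40 had a member, with 60 microexons in all. These were mostly skipped in HEK293T cells. The level was below 0.1 in 37, between 0.1 and 0.9 in 14 and above 0.9 in 9, and the median was 0.0236, against 0.857 for the other 661 members. In 57 of the 60 the length is a multiple of 3. PTPRS and KIF1A held both skipped exons and exons in use. PTPRS, a receptor tyrosine phosphatase of the synapse, had 4 members, of which one, of 12 nt, was at 0.355 to 0.522 and the others, of 9, 12 and 18 nt, were at 0.026 or less in every library. KIF1A, a kinesin of synaptic vesicle precursors, had an 18-nt exon at 0.995 or more, a 27-nt exon at 0.113 to 0.240 and 2 others at 0.007 or less. PTK2, the focal adhesion kinase, had exons of 9, 18 and 21 nt, all at 0.056 or less.

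None of the 55 compared members of these genes met the thresholds (limma, smallest adjusted p 0.856). An unadjusted p under 0.05 was found for 3 of them, and for 4.47% of all events. In MT 30 were higher and 25 lower, with a median difference of 0.00233, beside -0.00200 for all events. MAP4K4, a kinase that acts on the cytoskeleton, had the largest non-overlapping difference, with its 9-nt exon at 0.479, 0.401 and 0.389 in WT against 0.519, 0.508 and 0.520 in MT. All MT libraries were above WT, and they spanned only 0.012. TNIK, a related kinase, had a 24-nt exon at 0.373, 0.304 and 0.324 in WT against 0.475, 0.558 and 0.358 in MT, where the third MT library lay within the WT range. The 18-nt exon of MACF1, a crosslinker of actin and microtubules, was at 0.264, 0.125 and 0.246 in WT against 0.395, 0.192 and 0.416 in MT, with the second MT library inside the WT range.

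The next members of these genes had WT and MT levels that overlapped, which does not show that they are alike. DNM2, the dynamin that cuts endocytic vesicles, had a 12-nt exon at 0.329 ± 0.016 in WT against 0.356 ± 0.027 in MT (SD, n = 3). PICALM, a clathrin adaptor, had a 24-nt exon at 0.246 ± 0.024 and 0.213 ± 0.067. The difference was smaller than the SD of MT in PICALM and about as large in DNM2. The 24-nt exon of CLASP1, which stabilizes microtubule ends, was at 0.294 ± 0.102 in WT against 0.371 ± 0.118 in MT. The 12-nt exon of PTPRS that was in use had 0.375 ± 0.026 and 0.439 ± 0.076, and the 27-nt exon of KIF1A had 0.210 ± 0.043 and 0.149 ± 0.043. In all 5 the groups overlapped, although in KIF1A the difference was larger than the SD of either group. The 15-nt exons of SPTAN1 (0.060 and 0.053) and of ABI1 (0.045 and 0.067), a subunit of the actin-regulating WAVE complex, were rare in both genotypes, as was the 24-nt exon of RAPGEF6 (0.056 and 0.095), an activator of Rap. The 3-nt exon of CLASP2 was included at 0.939 in WT against 0.930 in MT.

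**Figure D4:**
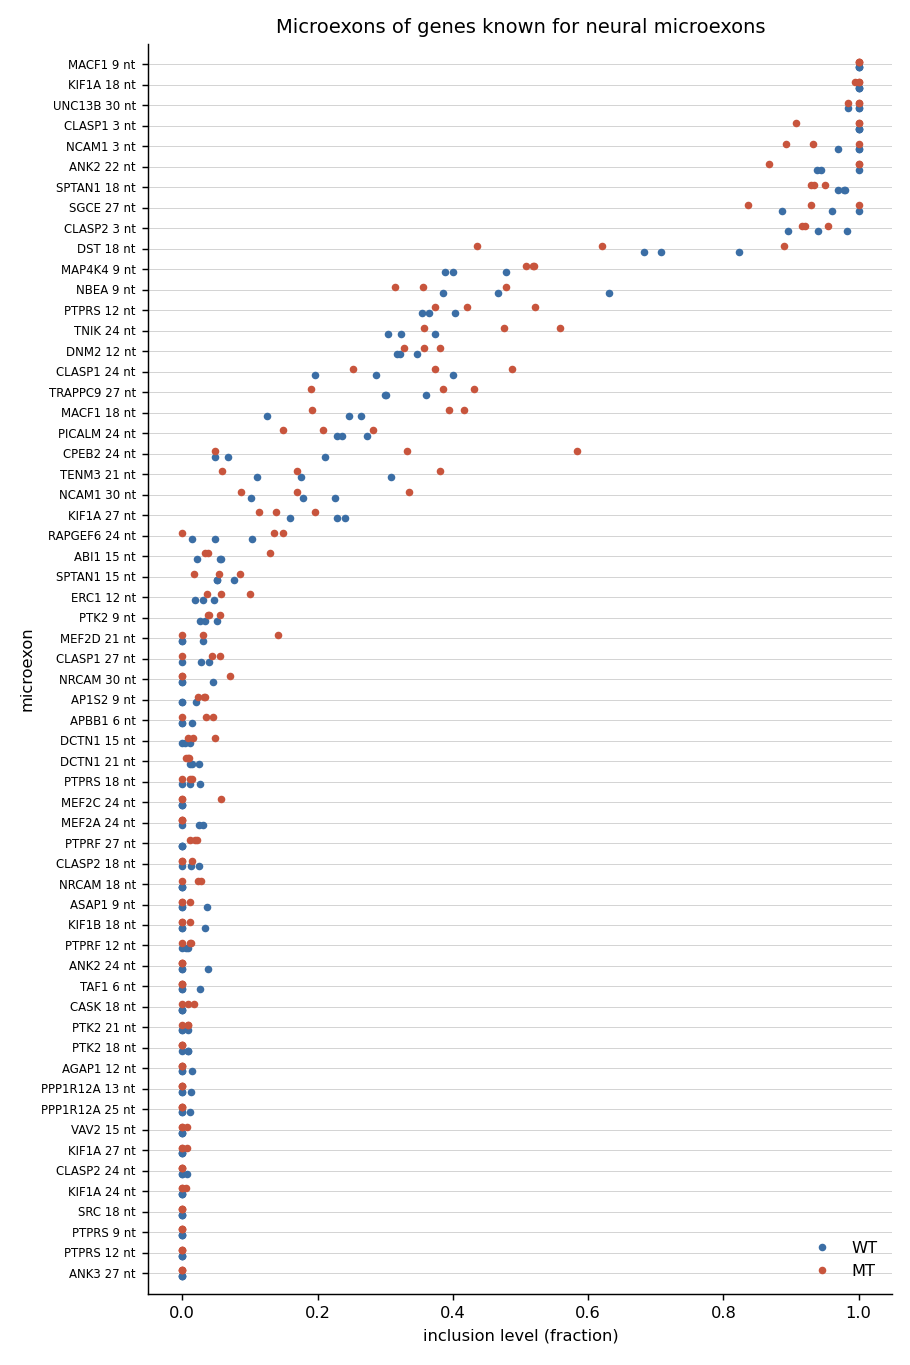
Inclusion level (fraction, horizontal axis) of the 60 microexons in 40 genes known for neural microexons, ordered by mean level, with 3 WT (blue) and 3 MT (red) libraries each. The lower 37 exons have a mean level below 0.1, and in the 14 exons of the middle range the colours mostly mix, with MAP4K4 as an exon whose MT points all lie to the right.

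The regulators of microexons were examined through their own splice events. Of 20 genes, 16 had events with at least 10 reads, 208 in all, and none of these events was a microexon. SRRM4 and NOVA2 had no event in the table, and SRRM3 and U2AF1 none with that depth. None of the 184 events compared met the thresholds (limma, smallest adjusted p 0.856), and 8 had an unadjusted p under 0.05. In MT 78 were higher and 104 lower, with a median difference of -0.00133. The smallest unadjusted p belonged to a cassette exon of SRSF11, an SR-type protein that helps SRRM4 at microexons, with levels of 0.739, 0.394 and 0.614 in WT against 0.304, 0.333 and 0.306 in MT. All MT libraries were below WT, and the adjusted p was 0.856.

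The 5 members with the most reads among those with a level between 0.1 and 0.9 had 420.2 to 4719 mean reads. The 24-nt exon of FLNA, an actin crosslinker, was at 0.865, 0.843 and 0.873 in WT against 0.840, 0.839 and 0.90 in MT. The 30-nt exon of ACLY, which makes acetyl-CoA from citrate, was at 0.665, 0.710 and 0.624 in WT against 0.661, 0.651 and 0.552 in MT. Both overlapped. The 26-nt exon of HNRNPC, an RNA-binding protein of nascent transcripts, was at 0.779 ± 0.036 in WT against 0.755 ± 0.044 in MT, and the 23-nt exon of SNRPG, an Sm protein of the spliceosomal ribonucleoproteins, at 0.905 ± 0.029 and 0.879 ± 0.042 (SD, n = 3). The difference in each was smaller than the SD of either group.

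RPS24, a protein of the small ribosomal subunit, had the deepest of the 5. The level of its 22-nt exon was 0.539, 0.470 and 0.445 in WT against 0.312, 0.279 and 0.736 in MT libraries, at 4719 mean reads. The first and second MT libraries lay below WT and the third above it, so the groups overlapped (difference -0.042; limma, adjusted p = 0.856). Without the third MT library the difference was -0.189, with an adjusted p of 0.0138. Over the alternatives the adjusted p ran from 0.0138 to 1.000. These values are from the row of the 22-nt exon with the most reads. With other upstream exons, at 50.58 and 49.67 mean reads, it was at 0.972 or more in every library. The 25-nt and 18-nt exons of RPS24 were at 0.047 or less in every library.

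In further members, MT library 3 was placed apart from MT libraries 1 and 2. The 118 members with 20 reads and a level between 0.1 and 0.9 were used. In 23 of them, MT libraries 1 and 2 lay on the same side of all WT libraries and MT library 3 did not. RPS24, MARK3, DST and the 24-nt exon of SLIT2 were among these 23. The same count was 6 with MT library 1 as the exception and 12 with MT library 2. No such count is given here for longer exons or all events, so the 23 cannot be set against a background share. Over the same 118 members, the median absolute difference was 0.0755 between MT libraries 1 and 2. It was 0.08 between MT libraries 1 and 3 and 0.0895 between MT libraries 2 and 3. By this measure MT library 3 lay only slightly further away. From the WT libraries, the median absolute difference was 0.0715 to 0.0825 for MT library 3. It was 0.08 to 0.101 for MT library 1 and 0.067 to 0.088 for MT library 2. MT library 3 also had the most junction reads over intact events, 3781848, against 2840402 to 3411658 in the other 5. Its levels equal value 6 of the 6 MT values listed per event, whereas MT libraries 1 and 2 equal values 1 and 2. Whether MT library 3 is a replicate of the same kind is not settled. Whether MT library 3 differs beyond the spread of the other libraries, and why, was not tested.

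For a minority of the 85 members in several rows, the level differed between pairs of flanking exons. The mean level differed between rows by a median of 0.0328, by at most 0.1 in 58, by more than 0.1 in 27 and by more than 0.3 in 10. The 27-nt exon of MAX, the partner of MYC, had a mean level of 0.317 ± 0.027 in WT against 0.370 ± 0.055 in MT (SD, n = 3) in the row with the most reads. With another upstream exon, at 10.75 mean reads, it had 0.962 ± 0.066 and 0.869 ± 0.039. The 2 rows differed far more than the genotypes did.

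The 27-nt exon of MARK3, a kinase of microtubule-associated proteins, gave 0.323, 0.539 and 0.265 in WT against 0.100, 0.077 and 0.327 in MT with one downstream exon. With a nearer downstream exon it gave 0.858, 0.942 and 0.929 in WT against 0.539, 0.453 and 0.949 in MT. In both rows the first and second MT libraries were below all WT libraries and the third was not (limma, adjusted p = 0.841 and 0.856). The rows share the reads over the upstream junction and are not independent. The 30-nt exon of ACLY was at 0.552 to 0.710 in its main row and at 0.931 or more with another upstream exon. MAX and MARK3 were chosen after their values were seen.

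**Figure D5:**
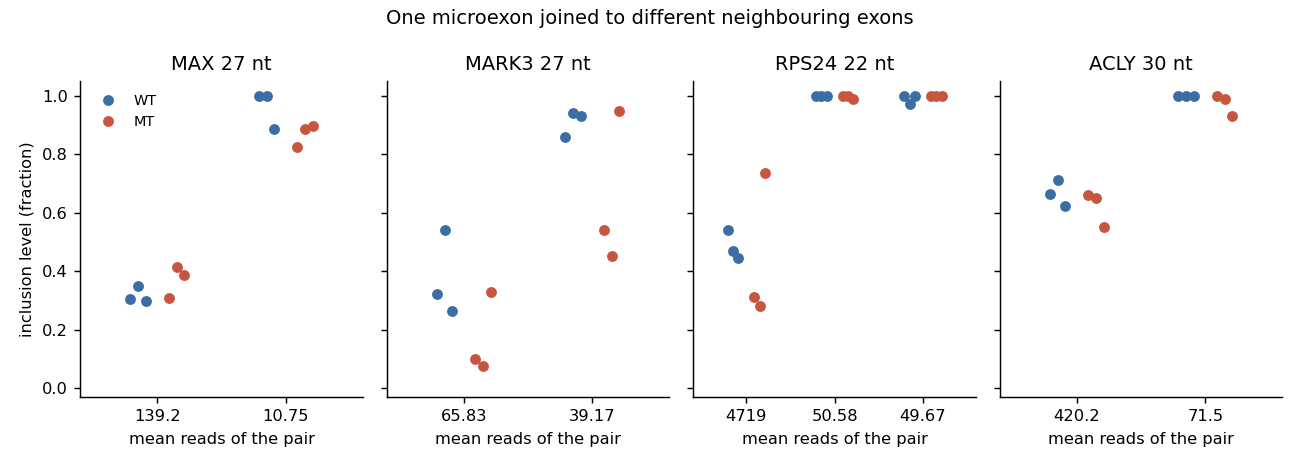
Inclusion level (fraction, vertical axis) of the microexons of MAX, MARK3, RPS24 and ACLY in 3 WT (blue) and 3 MT (red) libraries, with a column of points for each pair of flanking exons, labelled by its mean junction reads. In each gene the rows of 1 exon differ more than WT and MT do, as for MAX with WT means of 0.317 and 0.962.

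Several genes held more than 1 member. There were 70 such genes with 160 microexons and at most 4 in a gene. MYH10, a non-muscle myosin heavy chain, had a 28-nt exon at 0.986 or more in every library and exons of 27 and 30 nt at 0.059 or less. SH3GLB2, an endophilin-like protein, had a 24-nt exon at 0.897 to 0.984 and exons of 12 and 15 nt at 0.035 or less. DCTN2, a subunit of dynactin, had a 6-nt exon at 0.031, 0.128 and 0.046 in WT against 0.148, 0.228 and 0.107 in MT (limma, adjusted p = 0.722), where the groups overlapped. The 9-nt exon of DCTN2 was at 0.051 or less, in a row with the 6-nt exon as its downstream flanking exon. Microexons of 1 gene were thus used at very different levels in MYH10 and SH3GLB2. These genes were chosen after their values were seen.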

How the data were processed

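RNA-Seq libraries of HEK293T WT and MT cells, 3 each, were analysed, and the peak lists of the other samples of the series were not used here. Per the labels and Methods, total RNA was made into stranded libraries. STAR and StringTie are named in the submitters' processing notes, without versions, beside builds GRCh38 and hg38, and Methods name the rMATS model. The authors deposited the inclusion level of each event as a fraction with 3 decimals, with junction counts of each library as lists, mean reads of each genotype and form lengths. The authors' p-values were not used here.

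The table lists 6 MT values per event, and the 3 level columns of MT equal values 1, 2 and 6. It is not settled that these are the 3 MT samples, and the mean MT reads, which enter the read minimum, are the authors' means over all 6. Some count lists run together. In 79286 of 114349 events the lists were intact and recomputed all levels within 0.001, which includes 626 of the 833 microexon rows. These events held 2840402 to 3781848 junction reads per library.

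Levels were arcsine square-root transformed and compared with limma 3.58.1 in R 4.3.3, with a variance trend on the log of the mean reads, over all 83581 events with at least 10 reads and levels that vary, and with Benjamini-Hochberg adjustment. An event was called at an adjusted p under 0.05 and a difference above 0.1. The comparison was also run on simulated data with the same spread between libraries in both genotypes. Its outcome is not given here, and it does not set how readily a change in these microexons would be called. Alternatives were a logit transform (levels held between 0.01 and 0.99), no transform, other read minimums, no trend, cassette exons alone, a quasi-binomial model on counts, a difference of 0.05, a limit of 27 nt, and leaving out each library. Coordinates were read with hg38, in which 99.7% of members were preceded by AG, and GENCODE release 44. For 3 members a symbol turned into a date was replaced through the gene identifier.

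The exons named were every member called, up to 15 with the largest difference (at least 20 reads, groups not overlapping, difference above 0.1), up to 12 of the known microexon genes by reads, with a level between 0.05 and 0.95, the 4 shortest members with 20 reads and the 5 with the most reads and a level between 0.1 and 0.9. Others are said to be chosen after their values were seen, or stand as examples of a range. The members and lists were chosen with earlier results of these data known.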

Additional observations from a re-analysis of the deposited data

How the results depend on the processing

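The number of microexons called was 0 and remained 0 with a logit or no transform, without a read minimum or with at least 20 reads, without the variance trend, with a difference of 0.05 and with a limit of 27 nt. It was 1 with cassette exon rows alone (SLIT2, 12 nt) and 1 in the quasi-binomial model on counts (CXXC1). With a library left out it ran from 0 to 1, and the 1 was RPS24 without the third MT library. No event of a regulator was called by limma under the logit transform, with at least 20 reads or with a library left out, where 2 to 12 had an unadjusted p under 0.05. The share of microexons with a higher level in MT was 47.3% with the mean over the rows of an exon.

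Of 31 named exons, 23 kept the direction of the difference in every alternative run. Only leaving out a library could change that direction, since the other alternatives keep the same mean levels. The direction could not change for the 10 exons chosen because WT and MT did not overlap, nor for MAP4K4. For these exons, the kept direction therefore adds no support. The other 8 had small differences that changed sign with a library left out. Their differences then ran from -0.009 to 0.039 for ABI1, from -0.007 to 0.019 for ASXL1, from -0.031 to 0.013 for CLASP2, from -0.021 to 0.010 for FLNA, from -0.189 to 0.039 for RPS24, from -0.043 to 0.043 for SEPTIN7, from -0.024 to 0.010 for SPTAN1 (15 nt) and from -0.001 to 0.007 for VDAC3. The cause was not tested.

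No paired analysis was possible because the level columns are tied to a genotype and not to the replicate numbers of the labels. At the members' median of 28 to 40 reads per library, differences near 0.1 are within the counting error of single libraries for levels near 0.5. Near 0 or 1 the counting error is smaller. There, 0 of 28 or 40 reads allows a share of up to 0.107 or 0.075. These limits are for single libraries, and each genotype had 3.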
